A study of Mus musculus with 19 samples.

Results

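Sorcs2, Cdh13 and Auts2 are 3 of the 1609 genes for which the study deposited RNA ratios in mouse skin squamous cell carcinoma. They were chosen by measured values, as genes of great length that hold several Smad2/3 sites and had more RNA in quiescent tumour cells. Their site counts and ratios are therefore described and not tested. The RNA came from tumours SCC1 and SCC2 of C57BL/6 mice, grown as allografts from 10000 cells injected into the skin. Quiescent cells were CD71lo H2BGFPhi, proliferative cells CD71hi H2BGFPlo and double negative cells CD71lo H2BGFPlo, where CD71 is the transferrin receptor and H2BGFP is a histone label diluted by division. Each population gave 1 library of 100000 sorted cells per tumour. There are thus no replicates within a tumour. Open chromatin was mapped by ATAC-seq, which reads where a transposase can cut, in 10 libraries of 50000 cells: these populations and a double positive one (CD71hi H2BGFPhi) in SCC1 and SCC2, and 2 libraries from a Tgfbr2KO tumour, SCC3. Smad2/3 binding was mapped by ChIP-seq in 1 sample of 12000000 SCC1 cells, grown in culture with 50 uM calcium and given 5 ng/mL TGFβ1 for 1 h. The ChIP cells were thus in another state than the sorted tumour cells.

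Smad2 and Smad3 are phosphorylated by the TGF-β receptor, enter the nucleus with Smad4 and bind short elements with the letters AGAC, often beside other factors such as AP-1. Sorcs2 encodes a sorting receptor with a VPS10 domain that binds precursors of neurotrophins together with the p75 receptor and is best known from neurons. Cdh13 encodes T-cadherin, which is held in the membrane by a lipid anchor, lacks the cytoplasmic tail of other cadherins and binds adiponectin; it is known from blood vessels and basal keratinocytes. Auts2 encodes a nuclear protein that joins noncanonical Polycomb complexes and is best known from the developing brain.

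In the GRCm38.p6 annotation, the assembly that mm10 names, Sorcs2 lies at chr5:36017180-36398197 and is 381.0 kb long. Cdh13 lies at chr8:118140017-119324929 with 1184.9 kb, and Auts2 at chr5:131437333-132543220 with 1105.9 kb. By length these are ranks 22, 2 and 3 of the 1600 table genes with coordinates. The annotation used gives neither strand nor exons, so positions below are counted from the end of the gene with the lower coordinate.

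One listed Smad2/3 site in Sorcs2 falls on the promoter of another gene, and this is the place where the letters under a site of these genes can be shown. Psapl1, a protein-coding gene of 2548 bp named for its likeness to prosaposin, starts at chr5:36204021 on the plus strand inside Sorcs2. RefSeq promoters were at hand for 8 genes that start inside a member, 12 promoters in all, and this was the 1 that held a site or a peak. The 250 bases before the Psapl1 start, chr5:36203771-36204020 on the plus strand of GRCm38.p6, are given from RefSeq, with matches to AGAC or TGANTCA, on either strand, in capitals.
Psapl1 promoter: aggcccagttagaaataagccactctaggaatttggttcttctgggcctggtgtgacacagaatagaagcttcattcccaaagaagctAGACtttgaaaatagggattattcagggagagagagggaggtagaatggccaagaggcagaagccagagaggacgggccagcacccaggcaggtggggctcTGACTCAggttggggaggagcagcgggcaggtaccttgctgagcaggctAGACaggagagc
The site, chr5:36203926-36204126, covers the last 95 of these bases, from base 156 on, and the ATAC peak chr5:36203801-36204100 covers the last 220. TGANTCA, the element of AP-1, is present at bases 190 to 196, inside both the site and the peak, and is found in 6.75% of 32851 RefSeq promoters over the same length. AGAC stands at bases 89 to 92 and at bases 239 to 242, the latter inside the site, and 82.9% of promoters hold it. CAGAC, held by 42.2% of promoters, GTCTAGAC, held by 0.167%, GGCGC, held by 32.0%, and GGCCG, held by 30.4%, were searched on both strands and had no match in these letters. Of these, AGAC is part of CAGAC and of GTCTAGAC. Psapl1 has no ratio in the expression table.

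All 3 genes had more RNA in quiescent than in proliferative cells of both tumours, where 35.8% of the 1609 table genes did. Since the choice of these genes used this contrast, nothing is read from that count. The authors' deposited table gives Sorcs2 a log2 ratio of quiescent to proliferative cells of 1.38 (SCC1) and 1.21 (SCC2), or 2.61-fold and 2.31-fold. Cdh13 was alike, and the authors' deposited table puts it at 1.39 (SCC1) and 1.03 (SCC2), or 2.63-fold and 2.04-fold. For Auts2 the authors' deposited table has 1.29 (SCC1) and 4.80 (SCC2), or 2.44-fold and 27.8-fold. In SCC1 the 3 genes thus had nearly the same ratio, while in SCC2 Auts2 was far above the others. All 3 also reached 1 in each tumour, as 11.3% of the table did. The table's own medians were below 0, at -0.61 (SCC1) and -0.49 (SCC2). With bulk libraries, more cells that hold an RNA and more RNA per cell cannot be told apart.

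Against proliferative cells, double negative cells also had ratios above 0 for all 3 genes in both tumours, where 42.6% of the table did. Cdh13 was the highest of the 3 in each tumour, and the authors' deposited table gives it log2 ratios of 1.18 (SCC1) and 1.58 (SCC2). The authors' deposited table has 0.62 (SCC1) and 1.52 (SCC2) for Sorcs2, and 0.83 (SCC1) and 0.42 (SCC2) for Auts2, so their order differed between the tumours. Cdh13 alone of the 3 reached 1 in each tumour, as 15.5% of the table did. This contrast uses the same proliferative libraries as the first one, so the values are set side by side and not compared.

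Quiescent and double negative cells, the populations low for CD71, were set against each other last. Auts2 was higher in quiescent cells of both tumours, as 16.3% of the table was, and the authors' deposited table gives it log2 ratios of 0.42 (SCC1) and 4.35 (SCC2). Its SCC2 value ranked 23 from the top of the 1609 genes. For Sorcs2 the authors' deposited table has 0.72 (SCC1) and -0.35 (SCC2), and for Cdh13 0.17 (SCC1) and -0.57 (SCC2). Both therefore changed sign between the tumours, as 53.4% of the table did, and 12.6% of the table was above 0 in SCC1 and below it in SCC2 like them. None of the 3 genes (0 of 3) reached 1 in each tumour, as 1.31% of the table did. The 3 ratios of a tumour come from 3 libraries, so each follows closely from the others. The Auts2 ratio of quiescent to proliferative SCC2 cells comes to 4.77 from the other pair of ratios, against 4.80 in the authors' deposited table. Proliferative cells were lowest for all 3 genes in both tumours. The quiescent library was highest for Auts2 in both tumours and for Sorcs2 and Cdh13 in SCC1, and the double negative library was highest for Sorcs2 and Cdh13 in SCC2. With 1 library each there is no spread, so neighbours in that order, such as quiescent and double negative cells for Cdh13 in SCC1, cannot be separated.

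**Figure D1:**
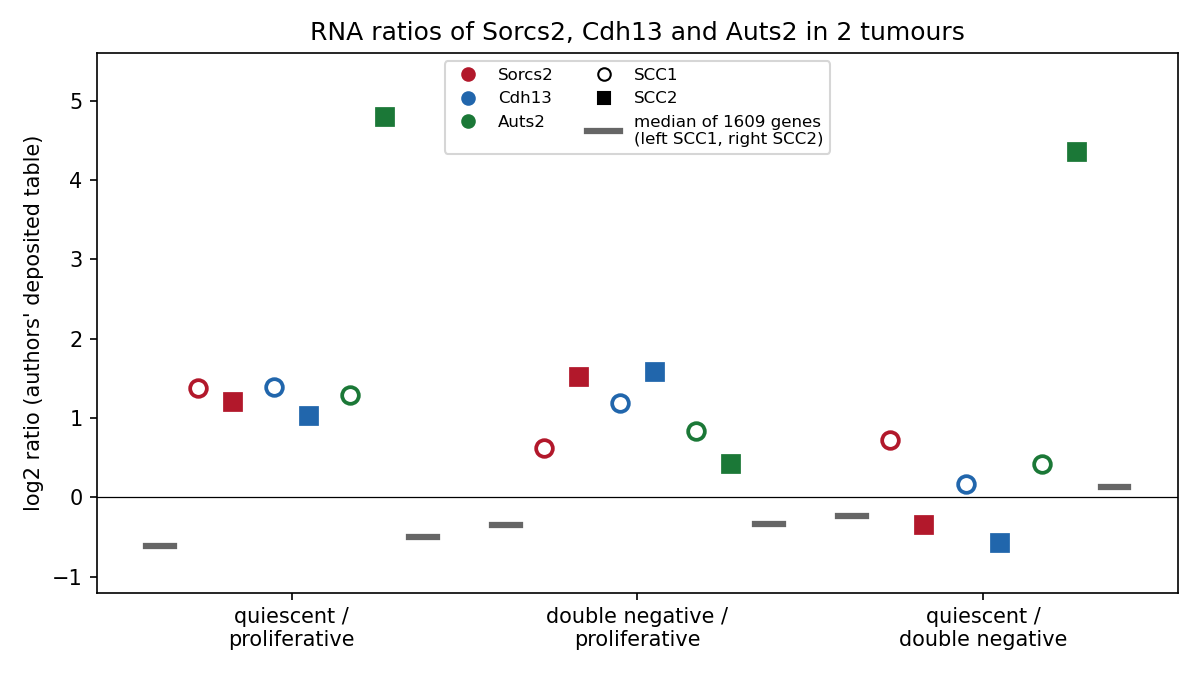
Log2 RNA ratios from the authors' deposited table on the y axis, for 3 population pairs on the x axis. Open circles are SCC1, filled squares SCC2, and grey bars the median of the 1609 genes. Auts2 in SCC2 stands at 4.80 and 4.35 in the pairs that use quiescent cells and at 0.42 in the pair that does not.

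The high Auts2 values are those that use the quiescent library of SCC2, and the medians of fibroblast and immune markers were high in the same library. Of 14 fibroblast markers 10 had a ratio, and by the authors' deposited table their median of quiescent to proliferative cells was 0.07 for SCC1 (range -0.997 to 2.75) but 4.51 for SCC2 (range 2.54 to 5.38). Of 14 immune markers 7 had a ratio, and by the authors' deposited table their median was -0.30 for SCC1 (range -1.57 to 1.65) but 2.87 for SCC2 (range 2.49 to 4.24). Set against double negative cells, the fibroblast median by the authors' deposited table was -2.72 for SCC1 and 3.14 for SCC2. The immune median by the authors' deposited table was then -1.73 for SCC1 and 2.30 for SCC2. For quiescent to proliferative cells the authors' deposited table gives Auts2 1.29 (SCC1) and 4.80 (SCC2). For quiescent to double negative cells it gives Auts2 0.42 (SCC1) and 4.35 (SCC2). In the latter pair Sorcs2 has 0.72 (SCC1) and -0.35 (SCC2), and Cdh13 0.17 (SCC1) and -0.57 (SCC2). The part of such cells in the ratios of the 3 genes was not tested.

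Endothelial cells are a known source of Cdh13, and their markers, among others, were high in double negative cells. Of 12 endothelial markers 3 had a ratio, Cldn5, Egfl7 and Ramp2. By the authors' deposited table their median of double negative to proliferative cells was 6.57 for SCC1 (range 3.34 to 6.84) and 4.53 for SCC2 (range 1.63 to 5.84). Against double negative cells, the median of quiescent cells by the authors' deposited table was -7.14 for SCC1 and -0.79 for SCC2. Their median of quiescent to proliferative cells by the authors' deposited table was -0.61 for SCC1 (range -0.83 to -0.53) and 2.75 for SCC2 (range 0.88 to 5.11). For that pair the authors' deposited table gives Cdh13 1.39 (SCC1) and 1.03 (SCC2). Fibroblast markers were above 0 in double negative against proliferative cells too, for 9 of 10 in both tumours, with medians by the authors' deposited table of 2.73 for SCC1 and 1.47 for SCC2. For immune markers this held for 5 of 7, with medians by the authors' deposited table of 1.32 for SCC1 and 0.42 for SCC2. Of all 1609 genes with ratios, 42.6% were above 0 in both tumours for double negative to proliferative cells. What RNA of these cell types adds to the ratios of Cdh13, Sorcs2 and Auts2 was not tested. Of 14 keratinocyte markers Epcam alone had a ratio, and the authors' deposited table gives it -3.21 (SCC1) and -0.40 (SCC2) for quiescent to proliferative cells. The Schwann and melanocyte list (0 of 13) and the smooth muscle and pericyte list (0 of 9) had none. All 9 proliferation markers, which include the CD71 gene Tfrc used for the sort, had quiescent to proliferative ratios below 0 in each tumour, as 52.3% of the table had. The table holds ratios and no levels, so the tissue label was not checked by levels of its markers.

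**Figure D2:**
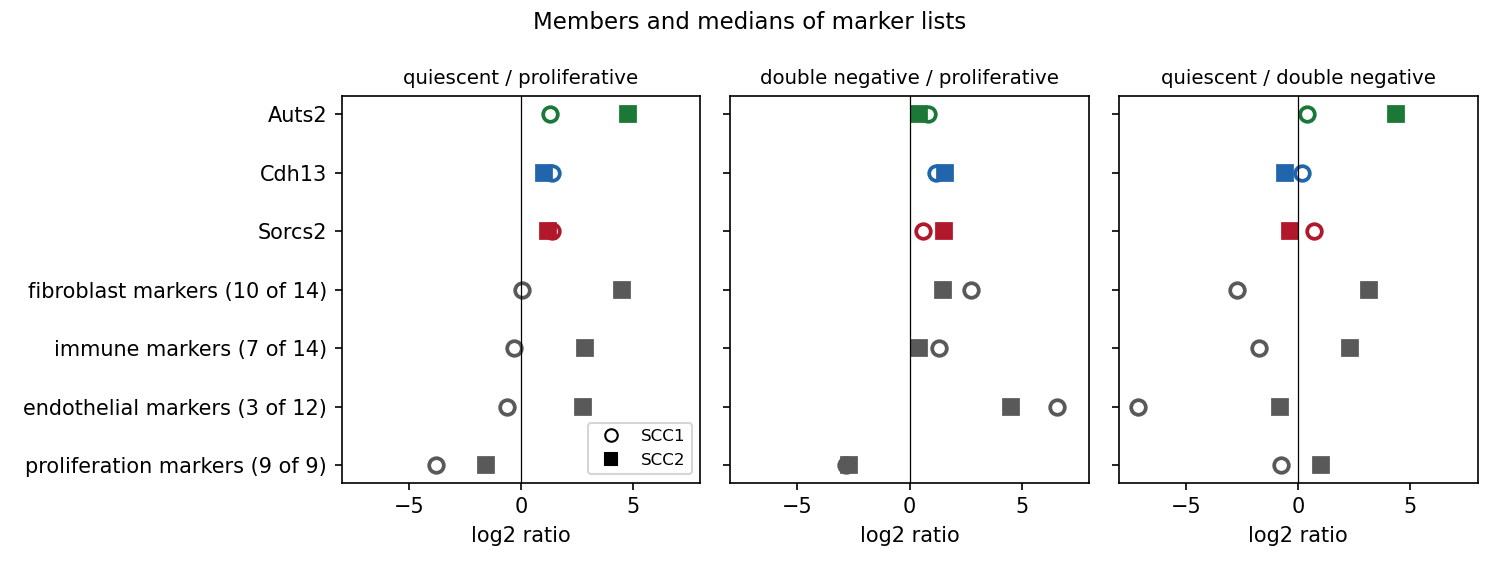
Log2 ratios (x axis) of the 3 genes and the medians of 4 marker lists, with the number of listed genes that have a ratio in brackets, in 3 panels by population pair. Open circles are SCC1 and filled squares SCC2. Auts2 and the fibroblast and immune lists lie to the right in SCC2 wherever quiescent cells are the numerator.

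Relatives and partners of the 3 proteins were mostly without a ratio. Among 5 VPS10 receptors Sorcs2 and Sorl1 had one, and Sorl1 went the other way, with -0.91 (SCC1) and -1.04 (SCC2) for quiescent to proliferative cells by the authors' deposited table. Of 8 neurotrophins and their receptors Bdnf, a ligand of the p75 receptor in its precursor form, had one, and the authors' deposited table gives it 1.49 (SCC1) and -0.23 (SCC2). Cdh13 was the only one of 27 cadherins and catenins and of 5 adiponectin genes in the table. Among 13 genes of the AUTS2 family and its Polycomb partners, Ring1, a ubiquitin ligase subunit of these complexes, was the other one, and the authors' deposited table puts it at 1.33 (SCC1) and 1.47 (SCC2). Of 24 TGF-β ligands, receptors and Smad genes 6 had a ratio, and these 6 were above 0 in both tumours, where 35.8% of the table was. The receptor-like genes Bambi, at 1.13 (SCC1) and 2.82 (SCC2), and Eng, at 0.72 (SCC1) and 1.88 (SCC2), had the higher SCC2 values in the authors' deposited table. Tgfb1, which encodes a ligand, stood at 1.44 (SCC1) and 0.08 (SCC2) in the authors' deposited table. Of the other ligand genes, the authors' deposited table gives Tgfb2 0.64 (SCC1) and 0.17 (SCC2), and Tgfb3 0.36 (SCC1) and 0.71 (SCC2). Ltbp4, whose protein binds latent TGF-β, has 1.73 (SCC1) and 1.60 (SCC2) by the authors' deposited table.

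Likeness of pattern was measured as the Euclidean distance over the 6 ratio columns. Closest to Sorcs2 were the transcription factor gene Klf9 (distance 0.287), Basp1 (0.375), Ggnbp1 (0.411), Hist3h2a (0.525) and the AP-1 gene Jund (0.536). For Cdh13 they were Zfp36, which encodes a protein that destabilises mRNA (0.269), the repressor gene Prdm1 (0.352), Slc24a3 (0.398), Calcoco1 (0.519) and Shox2 (0.525). For Auts2 no gene was as close: Tmprss11d, a membrane protease gene, was nearest (0.997), then Gm4013 (1.88), Slc6a14 (1.95), the growth factor gene Mdk (2.41) and the chemokine gene Ccl7 (2.44). Sorcs2 and Cdh13 were 0.841 apart, and Sorcs2 ranked 39 among the genes closest to Cdh13. Auts2 was 6.03 from Sorcs2 and 6.32 from Cdh13, which ranked 440 and 529 in closeness to Auts2. The quiescent library of SCC2 enters the Auts2 distances through both of its high ratios, 4.80 and 4.35.

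A listed Smad2/3 site is a 201 bp interval bound in the treated SCC1 cells and holding a motif, by the name of the list, which has 6143 entries without a score. Sites and peaks were counted in the gene and 10 kb either side and divided by the gene length. Sorcs2 held 15 sites, or 3.94 per 100 kb, Cdh13 held 8, or 0.675, and Auts2 held 5, or 0.452. At least 1 site was found in 15.4% of 21887 protein-coding genes, in 28.2% of the 990 that are 200 kb or longer and in 21.4% of the 1600 table genes. At least 5 were found in 0.475%, 4.04% and 0.812% of these. Because the members were chosen for their sites, nothing is read from their number here. The term Smad-rich rests on the count of sites for all 3 genes, and by density it holds best for Sorcs2. Cdh13 and Auts2 are above the 0.170 per 100 kb of all protein-coding genes of 200 kb or more pooled. They are also above the 0.352 of the 54 table genes of that length pooled, the members among them. Only 28.2% and 46.3% of the genes in these pools held a site, which lowers both values. Among the 54, Auts2 ranked 14 in density. All table genes pooled had 0.830. Flank sites are counted but flank length is not, which raises this value for short genes, so long genes are not ranked against it.

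In count, Sorcs2 ranked 2 among all protein-coding genes, after Pard3, a cell polarity gene with 17 sites. Among the 990 long genes it ranked 2 in density too, after Runx1, a transcription factor gene with 10 sites and 4.45 per 100 kb. Cdh13 and Auts2 ranked 112 and 160 of these in density. Of the 59 genes of 1 Mb or more, 9 held a site and 3 held at least 5: Cdh13 with 8, the growth factor gene Nrg1 with 7 and Auts2 with 5.

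The other table genes with at least 5 sites, none with as many as Sorcs2 or Cdh13, were not alike in RNA. Of the 10 with at least 5 sites, the members left out, 4 were higher in quiescent than in proliferative cells of both tumours, 4 were lower and 2 were of mixed sign, while 35.8% of the table was higher and 52.3% lower. Next to the members by count were 2900026A02Rik and Nrg1 with 7 sites each, and Wnt7a, the taurine transporter gene Slc6a6 and the actin crosslinker gene Actn1 with 6 each, all above Auts2. For quiescent to proliferative cells the authors' deposited table gives Nrg1 -0.58 (SCC1) and -1.06 (SCC2), Actn1 -0.37 (SCC1) and -1.15 (SCC2), and Slc6a6 0.89 (SCC1) and 0.56 (SCC2). Of long genes in the table, 2010111I01Rik (361.2 kb, 6 sites), named after its values were seen, was also higher, with 0.61 (SCC1) and 1.92 (SCC2) by the authors' deposited table.

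**Figure D3:**
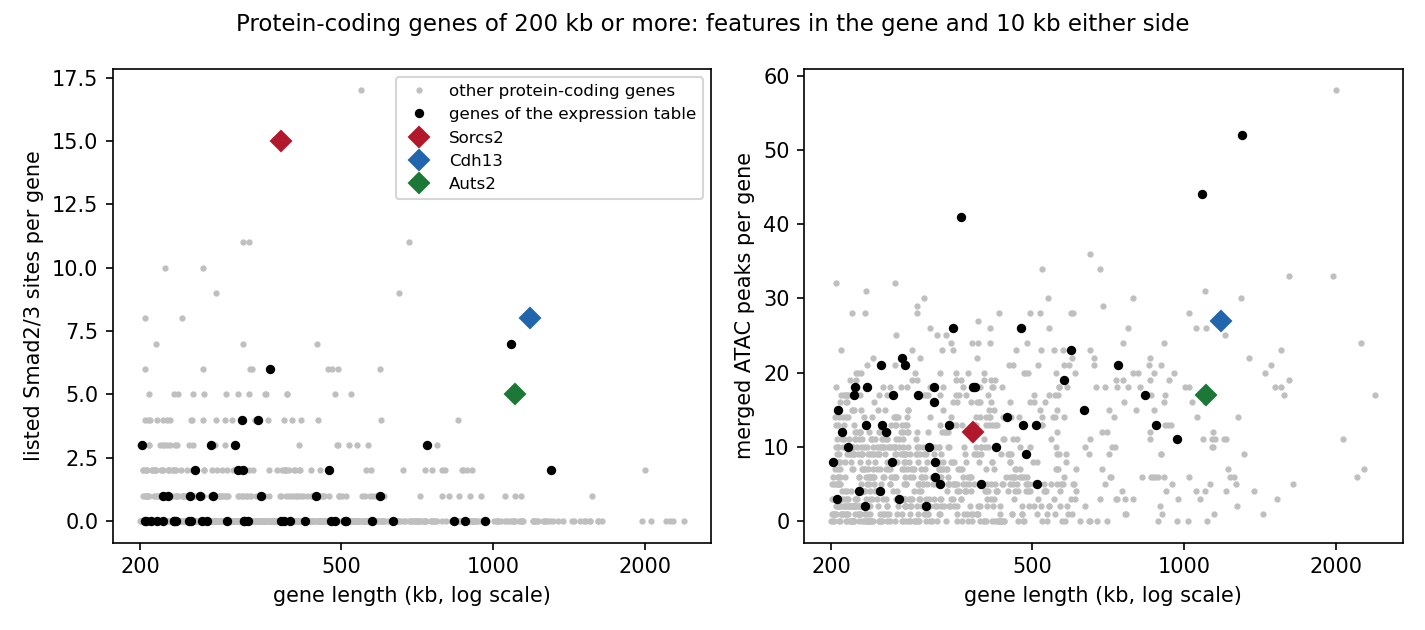
Number of listed Smad2/3 sites (left) and merged ATAC peaks (right) in each of the 990 protein-coding genes of 200 kb or more, against gene length on a log axis. Black points are genes of the expression table. Sorcs2 (15 sites) and Cdh13 (8 sites) lie high on the left for their length, while on the right all 3 genes lie among other long genes. The genes were chosen for their sites, so the contrast of the panels is a description.

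By merged ATAC peaks these genes ranked lower among long genes than by sites. Since they were chosen for their sites, nothing is read from that difference. Sorcs2 had 12 peaks, or 3.15 per 100 kb, Cdh13 27, or 2.28, and Auts2 17, or 1.54. Among the 990 long genes, whose median was 7 peaks and 1.97 per 100 kb, these densities ranked 321, 454 and 570. By peak count the 3 genes ranked 284, 29 and 149 of the 990, and by site count 2, 10 and 26. Sorcs2 was thus the one member with more sites than peaks. The merged list holds no value per library, so accessibility in quiescent, proliferative or Tgfbr2KO cells could not be compared at these genes.

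Along Sorcs2 the sites ran through most of the gene and were closest together near the high-coordinate end. From the other end, sites outside peaks stood at 52.8, 119.3, 159.7, 206.5, 276.1, 306.4, 354.4, 356.1 and 381.7 kb. Those in peaks stood at 58.1, 186.8, 339.7, 350.3, 363.0 and 365.4 kb, where 186.8 kb is the site on the Psapl1 promoter. The last 50 kb, 13.1% of the length, and the flank beyond it held 7 sites and 7 peaks. The outermost site, chr5:36398741-36398941, lay just beyond the annotated end and 0.391 kb from the nearest peak. Of the 15 sites 6 lay in a peak, or 40.0% (exact 95% binomial interval 16.3 to 67.7). The other 9 were 0.391 to 63.3 kb from a peak, with a median of 10.6 kb. Between chr5:36204101 and chr5:36356650, the widest stretch without a peak (152.6 kb), there were 3 sites.

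Cdh13 had all 8 sites in its low-coordinate part, at 10.1, 97.3, 146.5, 149.4, 171.8, 183.7, 244.5 and 304.7 kb. The 880.1 kb beyond them, 74.3% of the gene, held no site but 9 of its 27 peaks. In a peak lay 5 of 8 sites, or 62.5% (exact interval 24.5 to 91.5). The 3 others, at 10.1, 149.4 and 171.8 kb, were 86.9, 0.63 and 4.70 kb from the nearest peak. Among the 8 sites, those from 146.5 to 183.7 kb lay within the lncRNA gene Gm51555 (chr8:118273500-118333869), which is nested in Cdh13 and has no ratio.

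Auts2 had its 5 sites at 78.5, 120.9, 183.2, 210.5 and 460.9 kb, and all 17 peaks ended short of the middle of the gene. The last 580.9 kb, 52.5% of the length, had neither. In a peak lay 4 of 5 sites, or 80.0% (exact interval 28.4 to 99.5), and the one at 210.5 kb was 27.1 kb from the nearest. Peaks formed a group of 6 up to 183.1 kb and a group of 11 from 377.3 kb on, with 193.6 kb between them. Of the 4 peaks with a site, 3 were in the first group and 1 in the second.

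**Figure D4:**
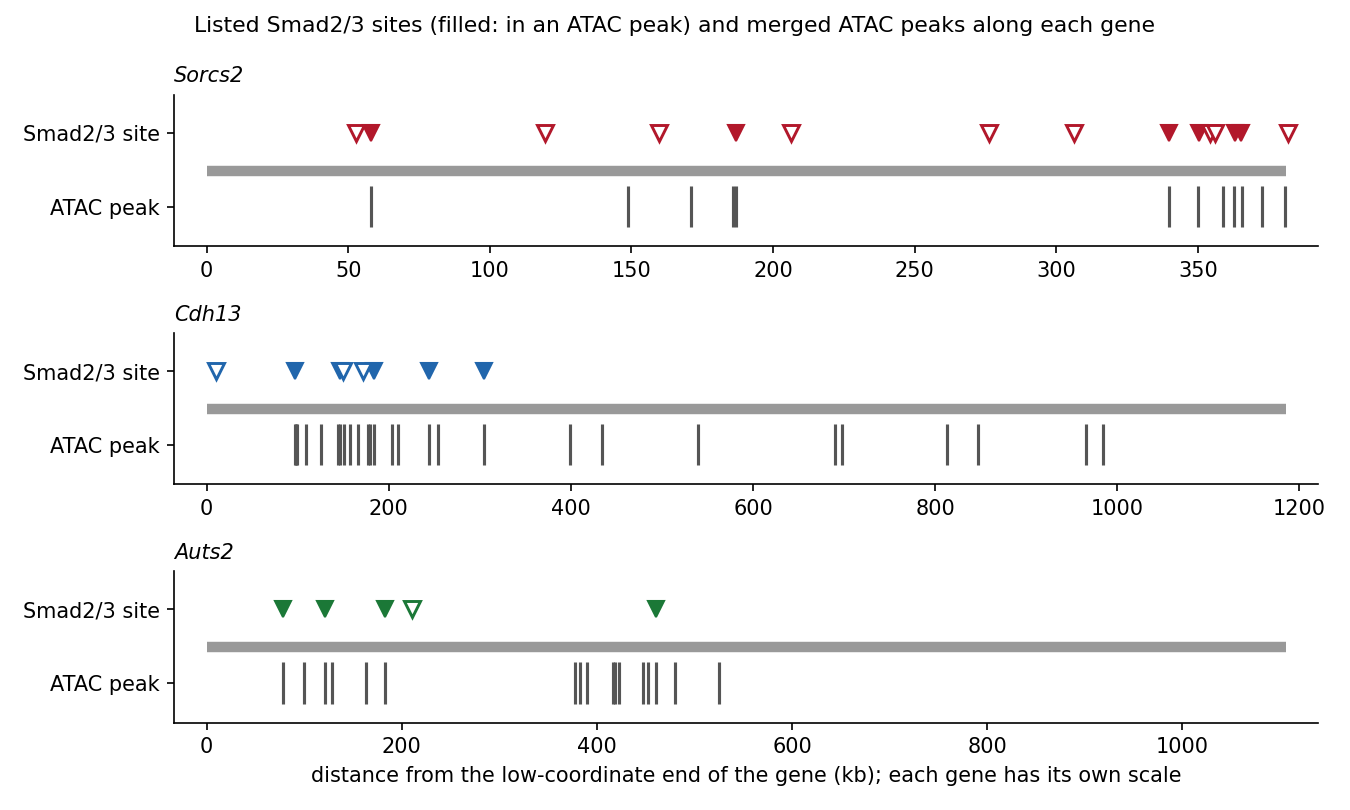
Positions of listed Smad2/3 sites (triangles, filled where the site lies in an ATAC peak) and merged ATAC peaks (lines) along each gene, by distance in kb from its low-coordinate end. Sites of Cdh13 and Auts2 lie in the low-coordinate part, up to 304.7 and 460.9 kb, and those of Sorcs2 crowd at the other end.

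Over the 3 genes 15 of 28 sites lay in a peak, or 53.6% (exact interval 33.9 to 72.5), and over the whole list 60.1% did. Turned round, 15 of 56 peaks held a site, or 26.8% (15.8 to 40.3), against 5.99% of all 61553 peaks. The genes were chosen for their sites, so the last difference is a description. Sites in peaks sat near the middle of the peak, at a median of 68, 92 and 46.5 bp from it in Sorcs2, Cdh13 and Auts2, and at most 108 bp in any. Peaks with a site were wider than those without, with medians of 550 against 450 bp in Sorcs2, 650 against 550 bp in Cdh13 and 725 against 600 bp in Auts2, and 650 against 550 bp over all peaks. Sites of 1 gene are not independent of each other, and the intervals cover counting error only.

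Among relatives of the members, Sorcs1 (535.8 kb) and Sorcs3 (599.5 kb) had 0 sites and 1 peak each, and Sorl1 had 2 sites and 7 peaks. Among 27 cadherins and catenins 7 had a site: next to Cdh13 stood Cdh3, which encodes P-cadherin of basal keratinocytes, with 6 sites and 6 peaks in 46.1 kb, and Cdh12 (1149.5 kb) had 0 sites and 11 peaks. Auts2 (1105.9 kb) was the only one of the 13 genes of its list with a site, but the others are far shorter, at 3.9 to 112.6 kb. Of the 24 TGF-β genes 11 had one, led by the inhibitor gene Smad7 with 7. For these counts the share over all protein-coding genes was 15.4%.

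None of the 3 genes was overlapped by a copy number call of the authors in input DNA. The nearest calls were a gain to 3 copies 1.12 Mb from Sorcs2 in both tumours, and gains to 4 copies in SCC1 and 3 in SCC2 at 1.14 Mb from Auts2. For Cdh13 it was a gain to 3 copies 6.04 Mb away in SCC1 and a loss to 1 copy 1.44 Mb away in SCC2. The authors' table of nonsynonymous mutations, with 1426 entries from RNA libraries of quiescent and proliferative cells, lists 0 in these genes. The shares of all genes with a copy number call or a listed mutation are not given here. Nothing is therefore read from the absence of either at the 3 genes.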

How the data were processed

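RNA ratios are log2 values between sorted populations of a tumour, deposited by the authors. TopHat2 2.0.9, Cufflinks 2.2.0 and Cuffdiff 2.2.0 with mm10 were used for RNA, Bowtie for ATAC and Bowtie with Picard 1.88 for ChIP, per the submitters' processing notes. For double negative RNA these list mm9 as well. Not given in the sources used here are the callers of peaks, copy number and mutations, the rule for table entry and the scaling of libraries. The table gives no counts, so depth is unknown and no test of a gene was run. Copy numbers are whole-number counts of copies per region by the authors, whose p-value per region was not used. The mutation table gives read counts and percent of reads per site, as deposited by the authors. Per the file headers it covers quiescent and proliferative libraries.

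Values were computed with pandas 2.3.3, numpy 2.4.6 and scipy 1.17.1 in Python 3.11.15 and drawn with matplotlib 3.10.9. Of 1609 table genes 1492 were matched to RefSeq coordinates by symbol and 108 by synonym. Overlap meant at least 1 bp, with 10 kb either side of a gene, and long genes were those of 200 kb or more. Counting was tested on simulated data of 1600 genes and recovered 100% of planted counts. The members and gene lists were chosen with earlier results of these data known. Named genes were the members, the 5 nearest each in ratio pattern, the 5 other table genes with most sites (ties by density) and the listed relatives with a ratio. A gene counted as higher when its ratio was above 0 in both tumours.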

Additional observations from a re-analysis of the deposited data

Results flagged for a closer look

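Some ratios had opposite signs in SCC1 and SCC2, and the difference was not tested, since each rests on 1 library a side. For quiescent to double negative cells these included Sorcs2 (0.72 in SCC1, -0.35 in SCC2) and Cdh13 (0.17, -0.57) in the authors' deposited table. Opposite signs were common in that contrast, in 53.4% of the 1609 genes, and were also found for Bdnf, Tgfb1, Nrg1, Slc6a6, Actn1 and Klf9, among other genes named above. Between quiescent and proliferative cells 11.6% of the table had opposite signs. Among genes named above outside the marker lists, the authors' deposited table shows this for Bdnf (1.49, -0.23), 2900026A02Rik (-0.20, 0.46) and Wnt7a, a Wnt ligand gene (-3.77, 1.65). The endothelial markers Cldn5 (-0.83, 2.75), Egfl7 (-0.61, 0.88) and Ramp2 (-0.53, 5.11) had opposite signs there too.

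Marker list medians did the same. For quiescent to double negative cells they were -2.72 in SCC1 and 3.14 in SCC2 for fibroblast, -1.73 and 2.30 for immune and -0.75 and 1.04 for proliferation markers in the authors' deposited table. For quiescent to proliferative cells they were -0.61 and 2.75 for endothelial and -0.30 and 2.87 for immune markers in the authors' deposited table.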

How the results depend on the processing

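Site and peak densities of the 3 genes stayed within 1.5 times with the gene body alone, with 50 kb either side, with sites within 1 kb counted once and with peaks of at least 200 bp, a width every peak has. The 1 kb setting could not change a count either. The smallest gap between sites was 1.49 kb in Sorcs2, 2.71 kb in Cdh13 and 27.2 kb in Auts2. The count of sites in a peak was 15 of 28 by overlap, by site centre and by at least 50 percent of the site, and 17 with a peak within 1 kb. The 18 ratios differed by 0.023 to 0.0396 from those implied by the other 2 ratios of the tumour. When a ratio had to reach 1 in each tumour, the count of higher genes fell from 3 to 1 for double negative against proliferative cells and from 1 to 0 for quiescent against double negative cells, by construction. In single tumours the latter count was 3 in SCC1 and 1 in SCC2; that is, Sorcs2 and Cdh13 rest on SCC1 there. The other 2 contrasts gave 3 of 3 in each tumour. No paired analysis was possible because no unpaired values were at hand to set it against: the ratios are themselves differences within a tumour, 1 per contrast and tumour, and since they chose the genes they are not tested. Unknown RNA depth limits the ratios, and 1 ChIP sample the sites.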
